A study of Homo sapiens with 4 samples.

Results

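The cyclin-dependent kinase (CDK) inhibitor genes were followed in the SCC-15 line, established from a human squamous carcinoma of the tongue, after transfection with a microRNA mimic. The members are 8 genes chosen by name, CDKN1A, CDKN1B, CDKN1C, CDKN2A, CDKN2B, CDKN2C, CDKN2D and CDKN3. Every probe set that the platform annotation maps to exactly 1 of them was taken, which gave 22 of the 49293 probe sets of the array and 7 of the 18132 genes with a probe set of their own; CDKN2C was not analysed here. The mimic group comprised 2 arrays of SCC-15 cells given a mimic at 30 nM. The control group comprised 2 arrays of the same cells given the negative control oligonucleotide miR-NC, also at 30 nM. Cells of both groups had been seeded 24 h before transfection and were collected 36 h after it. A mimic is a short synthetic duplex that acts in place of a mature microRNA, and the comparison asks which transcripts differ when that microRNA is raised. The labels do not say whether replicate arrays came from separate cultures, so the p-values rest on a spread between arrays that may be technical only.

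CDK inhibitors restrain the kinases that drive the cell cycle. The CIP/KIP proteins p21 (CDKN1A), p27 (CDKN1B) and p57 (CDKN1C) bind complexes of cyclins with CDKs, mainly those of CDK2, whereas the INK4 proteins p16 (CDKN2A), p15 (CDKN2B), p18 (CDKN2C) and p19 (CDKN2D) bind CDK4 and CDK6 and keep them from D-type cyclins. When these kinases are held back, the retinoblastoma protein and its relatives stay bound to E2F factors and genes of the cell cycle are kept off. CDKN3 carries the family name but encodes a phosphatase that removes the activating phosphate from CDKs, and its transcript is known to be most abundant in dividing cells. In squamous carcinomas the locus that holds CDKN2A and CDKN2B is often lost or silenced.

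The mimic goes by more than 1 name in the sources, as miR-762 in the series title and design text and as miR-585-5p in the labels of both mimic arrays. The mature sequences of both are shown because the name decides which seed (bases 2 to 8, in capitals, the part that pairs with target transcripts) the cells received. Both are given as RefSeq has them on GRCh38.p14, in the 5′ to 3′ direction.
hsa-miR-762 (chr16:30893951-30893972, plus strand): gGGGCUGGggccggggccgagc
hsa-miR-585-5p (chr5:169263649-169263670, minus strand): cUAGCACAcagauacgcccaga
The seeds had the same base at 2 of 7 positions and so do not belong to a shared seed family. No value below depends on which of the names is right.

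The values are log2 intensities after robust multi-array averaging (RMA), which corrects background, normalizes arrays to each other and summarises the probes of a probe set. Each difference is the mimic mean less the control mean in log2 units, with limma's moderated standard error (SE); a gene was called when its Benjamini-Hochberg adjusted p over all genes tested was under 0.05. Across probe sets the mimic arrays correlated with each other at 0.998 and the control arrays at 0.997, against 0.991 between groups. Of 14340 genes tested, 2544 were called higher and 1766 lower, or 30.1% in all, and quantile normalization of the deposited values moved this split to 2058 higher and 2619 lower. The epithelial markers KRT5, KRT14, CDH1 and EPCAM were at 9.27 to 12.32 on all 4 arrays, with KRT5 (0.48) and KRT14 (1.15) called higher in mimic arrays, while KRT6A, KRT17 and TP63 were not analysed here. Of the markers of other cell types, PTPRC (immune) and COL3A1 (fibroblast) were below the filter on dim probe sets, and the 6 that were tested were at 3.39 to 5.38, with CD14 called higher by 0.53 and the other 5 not called. The mean level of the 4 epithelial markers was 10.56 and 10.61 in mimic arrays and 10.17 and 10.09 in control arrays, and that of the 6 other markers was 4.31 and 4.41 in mimic arrays and 4.39 and 4.36 in control arrays. Whether these markers play a part in the results below was not tested.

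The inhibitor genes did not move as a block. Of the 7 genes tested, CDKN1C, CDKN2D and CDKN3 were called higher in mimic arrays, where 17.7% of all genes were, CDKN1A and CDKN2B were called lower, where 12.3% of all genes were, and CDKN1B and CDKN2A did not pass. The groups did not overlap for 6 of the 7, against 70.4% of all genes. The median difference of the 7 was -0.06, beside -0.02 for all genes tested. CDKN1C and CDKN3 were called higher by 2-fold or more, which held for 2.06% of all genes, and CDKN1A was called lower by 2-fold or more, which held for 0.195%, or 28 genes. At the level of single probe sets, 21 of 22 passed the filter on dim values, and 11 of these were called higher and 3 lower, against 14.5% and 7.95% (22.4% together) of all 31711 probe sets tested. By 2-fold or more, 10 were called higher and 2 lower, against 1.9% and 0.117% of all. The groups did not overlap for 19 of these 21 probe sets, against 66.6% of all. Probe sets of 1 gene share a transcript and are not independent, and 8 of the 22 belong to CDKN3. In RNA from whole cultures, fewer cells with a transcript and less of it per cell cannot be told apart.

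**Figure D1:**
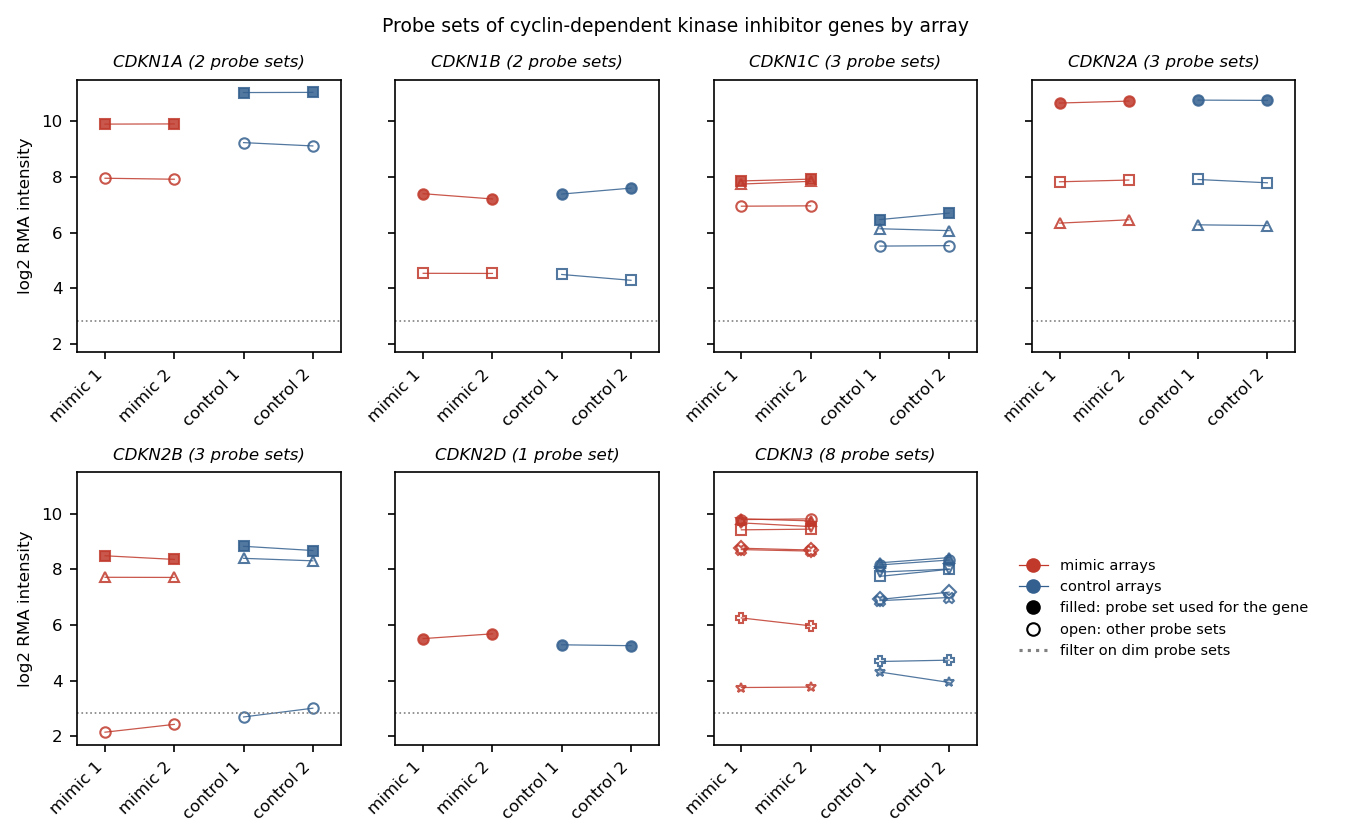
Log2 RMA intensity of all 22 probe sets of the 7 inhibitor genes on each array, with mimic arrays in red and control arrays in blue; lines join the 2 arrays of a group for 1 probe set, filled symbols mark the probe set that represents the gene, and the dotted line is the filter at 2.83. Both CDKN1A probe sets lie lower in mimic arrays, all 3 CDKN1C probe sets and 7 of 8 CDKN3 probe sets lie higher, and those of CDKN2A stay near the same level.

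CDKN1A, the gene of p21, encodes an inhibitor of CDK2 complexes that also binds the replication clamp; it lies at chr6:36676463-36687332 (RefSeq, GRCh38.p14, as for all genes here). Its representing probe set (11715388_s_at) was at 9.90 and 9.91 in mimic arrays, against 11.04 and 11.04 in control arrays. Both mimic arrays were thus low, and the gap between groups was far wider than the distance between replicates. CDKN1A fell by 1.13 ± 0.056 (SE), 2.19-fold (limma, adjusted p = 0.00112), with group means of 9.91 ± 0.005 and 11.04 ± 0.004 (SD, n = 2 each, mimic and control). Its decrease ranked 24 among the 14340 genes. The other probe set (11715387_at) was at 7.96 and 7.92 in mimic arrays and at 9.24 and 9.12 in control arrays. It fell by 1.24 ± 0.074 (SE), 2.36-fold (limma, adjusted p = 0.0017 over probe sets), so that both probe sets of the gene gave a decrease of similar size.

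CDKN1C, the gene of p57, is an imprinted gene expressed mainly from the maternal copy and is known for restraining growth in development (chr11:2883218-2885775). In mimic arrays its representing probe set (11763717_a_at) was at 7.86 and 7.93, against 6.47 and 6.71 in control arrays. The control arrays differed more from each other (SD 0.16) than the mimic arrays did (SD 0.046), and the groups did not overlap. CDKN1C rose by 1.30 ± 0.095 (SE), 2.47-fold (limma, adjusted p = 0.00196), and ranked 136 among increases. Its other probe sets rose by more. Probe set 11763718_x_at was at 7.75 and 7.85 in mimic arrays and at 6.14 and 6.07 in control arrays, a difference of 1.69 ± 0.073 (SE; limma, adjusted p = 0.00126 over probe sets). Probe set 11729118_a_at was at 6.95 and 6.97 in mimic arrays and at 5.52 and 5.54 in control arrays, a difference of 1.43 ± 0.063 (SE; limma, adjusted p = 0.00128 over probe sets). All 3 probe sets of CDKN1C were therefore called higher, by 2.47-fold to 3.23-fold.

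CDKN1B, the gene of p27 (chr12:12717368-12722369), is regulated to a large extent through degradation of its protein, which arrays do not see. Its representing probe set (11717091_s_at) was at 7.40 and 7.21 in mimic arrays and at 7.39 and 7.60 in control arrays. These ranges overlapped, and the difference of -0.19 ± 0.11 (SE) did not pass (limma, adjusted p = 0.228). The other probe set (11748603_a_at) was at 4.54 and 4.54 in mimic arrays and at 4.50 and 4.29 in control arrays. It had a difference of the opposite sign, 0.14 ± 0.09 (SE), which did not pass either (limma, adjusted p = 0.288 over probe sets). Within the CIP/KIP genes, the transcript of p21 was thus lower, that of p57 higher, and that of p27 without a call in mimic arrays.

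Among the INK4 genes, CDKN2A encodes p16 and, from another reading frame, the MDM2 inhibitor ARF; the annotation does not say which of these transcripts a probe set reads. The gene lies at chr9:21967752-21995324. Its representing probe set (11718293_a_at) was at 10.66 and 10.73 in mimic arrays and at 10.77 and 10.76 in control arrays. Although the groups did not overlap, the difference was -0.06 ± 0.06 (SE) and did not pass (limma, adjusted p = 0.443). Probe set 11753744_a_at was at 7.83 and 7.89 in mimic arrays and at 7.91 and 7.79 in control arrays, which overlapped. Probe set 11753745_x_at was at 6.34 and 6.46 in mimic arrays and at 6.28 and 6.25 in control arrays, without overlap. Their differences were 0.01 and 0.13, neither of them called (limma, adjusted p = 0.951 and 0.231 over probe sets), and the smaller of these changed sign to -0.07 after quantile normalization.

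CDKN2B encodes p15, an inhibitor induced by TGF-beta in epithelial cells, and lies on chromosome 9 beside CDKN2A, at chr9:22002903-22009313, with 7578 bases between the annotated genes. Its representing probe set (11726508_a_at) was at 8.49 and 8.36 in mimic arrays and at 8.83 and 8.68 in control arrays. Each mimic array was below each control array, by less than for CDKN1A. CDKN2B fell by 0.33 ± 0.084 (SE), 1.26-fold (limma, adjusted p = 0.042). This call did not hold over probe sets (limma, adjusted p = 0.0547), after median centring (0.05002), without the filter on low values (0.0601) or without any 1 of the arrays (0.0889 to 0.211). A second probe set (11736163_a_at) was at 7.71 and 7.71 in mimic arrays and at 8.39 and 8.30 in control arrays. It fell by 0.64 ± 0.068 (SE), 1.56-fold (limma, adjusted p = 0.00593 over probe sets). The third (11726507_a_at), at 2.14 and 2.43 in mimic arrays and 2.69 and 3.01 in control arrays, was below the filter at 2.83 by its mean and was not tested.

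CDKN2D, the gene of p19 (chr19:10566460-10568979), is an INK4 member whose transcript is known to vary over the cell cycle. Its single probe set (11725107_at) was at 5.51 and 5.68 in mimic arrays and at 5.29 and 5.25 in control arrays. The mimic arrays were higher and lay further apart than the control arrays. CDKN2D rose by 0.32 ± 0.078 (SE), 1.25-fold (limma, adjusted p = 0.0364). The call did not hold with the replicate number as a block (adjusted p = 0.0683), after quantile normalization (0.062), without the filter on low values (0.0533) or without any 1 of the arrays (0.0911 to 0.165).

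CDKN3, the phosphatase gene (chr14:54397007-54420218), was called higher in its brightest probe set. Its representing probe set (11753763_x_at) was at 9.82 and 9.74 in mimic arrays and at 8.23 and 8.42 in control arrays. CDKN3 rose by 1.45 ± 0.084 (SE), 2.73-fold (limma, adjusted p = 0.0013), and ranked 88 among increases. Of its 8 probe sets, 7 were called higher, by 1.40 to 1.75, with groups that did not overlap. The highest of them (11756069_x_at) was at 8.71 and 8.66 in mimic arrays and at 6.87 and 6.99 in control arrays, a 3.37-fold rise. All 7 are of the _x_at kind, whose probes may also match other transcripts, and whether they share target sequence was not looked at. The eighth (11762243_at), at 3.75 and 3.77 in mimic arrays and at 4.31 and 3.93 in control arrays, gave -0.36 ± 0.13 (SE) and did not pass (limma, adjusted p = 0.11 over probe sets); once all _s_at and _x_at probe sets are left out it stands for the gene, which then has no call (limma, adjusted p = 0.0957). MKI67, which encodes the Ki-67 antigen of dividing cells, was at 8.01 and 7.94 in mimic arrays and at 6.35 and 6.55 in control arrays, a rise of 1.53 ± 0.087 (SE; limma, adjusted p = 0.0013), the highest of its 6 probe sets, which began at 0.30. Whether a change in proliferation plays a part in the rise of CDKN3 was not tested.

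**Figure D2:**
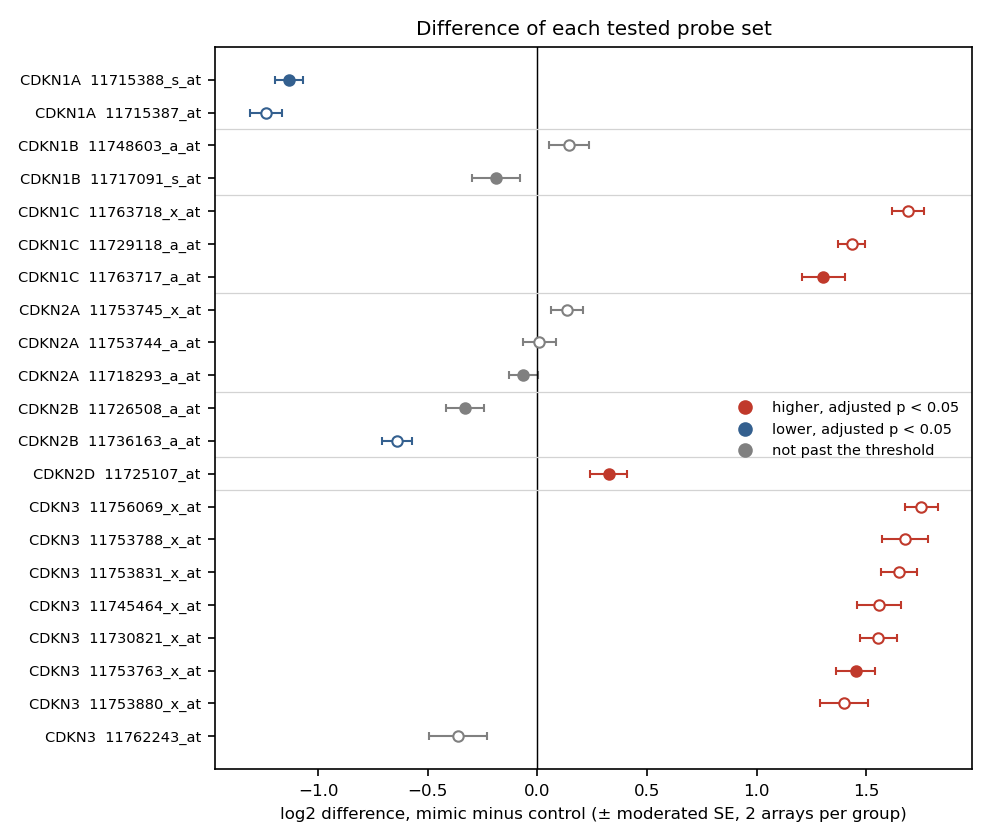
Log2 difference, mimic minus control, of the 21 tested probe sets with limma's moderated SE (2 arrays per group); red and blue mark adjusted p under 0.05 over all probe sets, grey the others, and filled points the probe set that represents the gene. The probe sets of CDKN1A, CDKN1C and CDKN2B agree in sign within each gene, those of CDKN1B and CDKN2A lie on both sides of 0, and 1 of 8 CDKN3 probe sets lies below 0.

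Array number limits these calls. Without mimic replicate 1 or mimic replicate 2 limma called 0 genes over the whole table, the inhibitors included, with the lowest adjusted p at 0.055 and 0.0551; at an unadjusted p under 0.05 there were 4198 and 4269 genes, of which 5 and 4 were inhibitor genes. Over those fits CDKN1A was at -1.13 and -1.14, CDKN1C at 1.34 and 1.27, and CDKN3 at 1.41 and 1.49. Without control replicate 1 or control replicate 2, CDKN1A, CDKN1C and CDKN3 were called (limma, adjusted p = 0.046 and 0.043 for each), and the other 4 were not. Over probe sets, no inhibitor call held when 1 array was left out, whichever array it was. An exact permutation test of a single gene, with 2 arrays in each group, has a smallest two-sided p of 0.333.

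**Figure D3:**
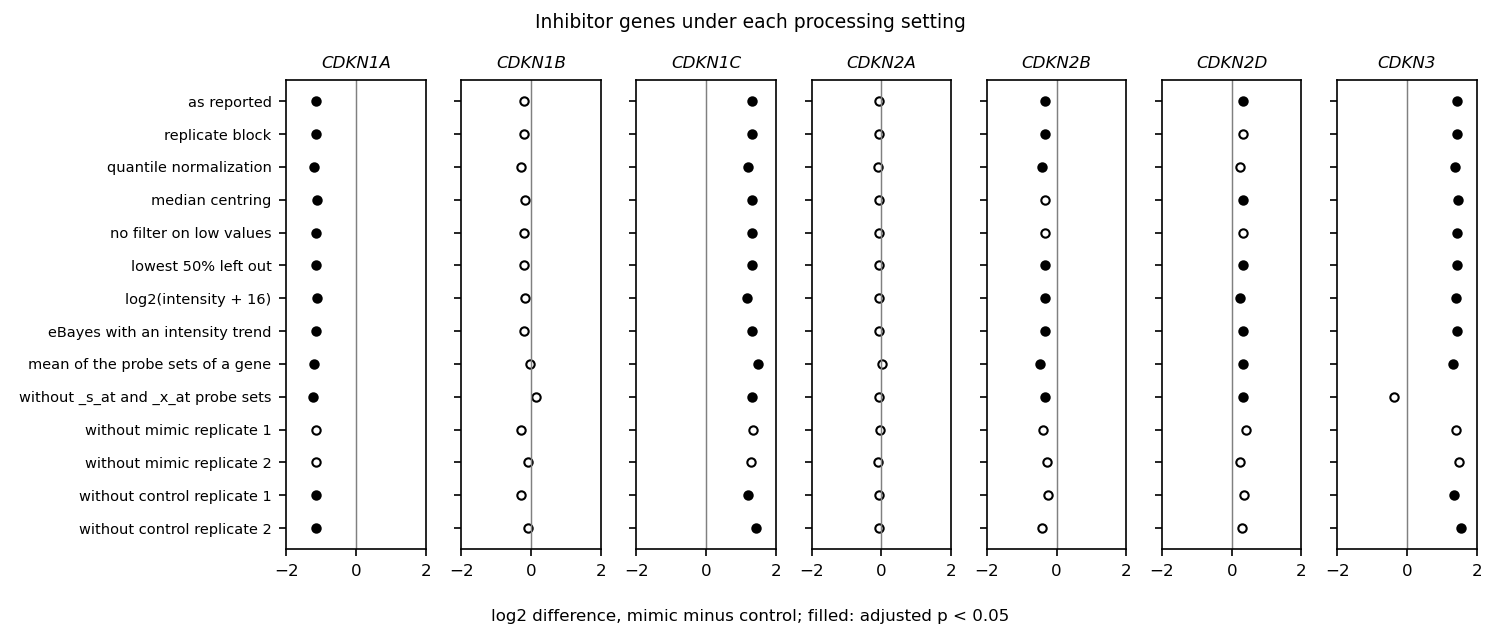
Log2 difference, mimic minus control, of each inhibitor gene as reported and under the 13 alternatives, with filled points at adjusted p under 0.05. CDKN1A, CDKN1C and CDKN3 keep their side of 0 throughout, except CDKN3 without _s_at and _x_at probe sets (-0.36), and have open points without either mimic array; CDKN2B and CDKN2D lose their calls when any array is left out.

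The sequences before the transcription starts are shown for the p21 and p15 genes, which fell, and for CDKN3, which rose, as a choice made with the values known; CDKN1C, which also rose, had no match in the table. Each is the 250 bases upstream of the start in the RefSeq promoter table, 5′ to 3′ in the direction of transcription. Capitals mark 4 motifs searched on both strands: the GC box GGGCGG bound by SP1 and KLF factors, the CCAAT box bound by NF-Y, the cell cycle genes homology region TTTGAA bound by MuvB complexes, and the E-box CAGCTG, which TFAP4 can bind.
CDKN1A (GRCh38.p14, chr6:36678464-36678713, plus strand): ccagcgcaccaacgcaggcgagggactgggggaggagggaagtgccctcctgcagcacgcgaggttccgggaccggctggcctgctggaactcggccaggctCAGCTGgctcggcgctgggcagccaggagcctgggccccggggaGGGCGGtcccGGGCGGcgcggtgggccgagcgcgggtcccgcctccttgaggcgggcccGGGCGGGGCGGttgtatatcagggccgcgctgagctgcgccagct
CDKN2B (GRCh38.p14, chr9:22009306-22009555, minus strand): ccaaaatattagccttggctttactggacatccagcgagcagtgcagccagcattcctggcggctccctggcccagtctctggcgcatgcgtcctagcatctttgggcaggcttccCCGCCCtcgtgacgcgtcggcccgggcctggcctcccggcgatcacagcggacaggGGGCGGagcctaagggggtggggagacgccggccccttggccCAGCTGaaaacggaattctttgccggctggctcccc
CDKN3 (GRCh38.p14, chr14:54396757-54397006, plus strand): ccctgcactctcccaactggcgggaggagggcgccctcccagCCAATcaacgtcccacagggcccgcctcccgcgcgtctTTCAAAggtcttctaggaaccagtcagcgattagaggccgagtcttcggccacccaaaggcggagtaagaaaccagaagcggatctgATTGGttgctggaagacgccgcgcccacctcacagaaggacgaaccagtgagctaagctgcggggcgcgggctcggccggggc
The CDKN1A window held GC boxes 104, 94, 45 and 40 bases before the start, the last 2 of them overlapping, and a CAGCTG 148 bases before it; the window lies inside the annotated gene, since longer transcripts begin upstream. In the CDKN2B window there were GC boxes at 134 and 78 bases and a CAGCTG at 36 bases. The CDKN3 window had no GC box, but CCAAT boxes at 208 and 83 bases and a TTTGAA, read on the reverse strand as TTCAAA, at 170 bases. Of the windows not shown, that of CDKN1B had a GC box at 71 bases and CCAAT boxes at 174 and 50, and that of CDKN2D had GC boxes at 156 and 44 bases and a CCAAT box at 234. Of the CDKN2A windows, 1 had a GC box at 37 bases and the other none of the motifs. Over the 35116 windows of the table, 42.6% held a GC box, 32.0% a CCAAT box, 13.3% a TTTGAA, 14.0% a CAGCTG and 4.69% both a CCAAT box and a TTTGAA. A match describes these letters only, and no binding was measured. TFAP4, which encodes a repressor of CDKN1A, had a difference of 0.10 and did not pass (limma, adjusted p = 0.403), and its difference was slightly below 0 after quantile normalization.

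Genes whose products the inhibitors bind or act beside were followed as a list of 18, for cyclins, CDKs and the CDK-activating kinase. Of 17 tested, 7 were called higher and 1 lower, where 17.7% and 12.3% of all genes were, with a median difference of 0.17 beside -0.02 for all genes; CDK3 was not analysed here. CCNA2, which encodes the S and G2 phase cyclin A2, was at 8.14 and 7.97 in mimic arrays and at 4.95 and 4.94 in control arrays, a rise of 3.11 ± 0.078 (SE; limma, adjusted p = 0.000784). Mitotic cyclin CCNB1 rose 3.34-fold (1.74 ± 0.098 SE; limma, adjusted p = 0.0013). CDK6, a kinase that INK4 proteins bind, was at 8.09 and 8.04 in mimic arrays and at 6.76 and 6.49 in control arrays. It rose 2.71-fold (1.44 ± 0.10 SE; limma, adjusted p = 0.00196), with 0.25 and 1.81 as the extremes of its 4 probe sets. CCND1, the gene of cyclin D1, rose 1.38-fold (0.47 ± 0.067 SE; limma, adjusted p = 0.00979). By contrast, CDK2 (-0.02) and CDK4 (0.13) did not pass (limma, adjusted p = 0.914 and 0.157). The member that fell was MNAT1, a subunit of the CDK-activating kinase (-0.24 ± 0.056 SE; limma, adjusted p = 0.0327), a call that ended with the replicate number as a block (0.0686) and without the filter on low values (0.0514). With 1 array left out, the list had fewer calls, whichever array it was.

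Downstream of the kinases, 20 genes of the retinoblastoma family, the E2F factors and the DREAM complex were listed. Of 19 tested, 6 were called higher and 1 lower, against 17.7% and 12.3% of all genes, with a median of 0.13; LIN9 was below the filter. After quantile normalization the counts were 6 and 4. FOXM1, the transcription factor of mitotic genes, was at 6.29 and 6.42 in mimic arrays and at 4.84 and 5.09 in control arrays. It rose 2.61-fold (1.39 ± 0.10 SE; limma, adjusted p = 0.0021), with 1 of its probe sets at 0.16. E2F7, an E2F repressor, rose 1.70-fold (0.77 ± 0.10 SE; limma, adjusted p = 0.00848) in its brightest probe set while its other probe set gave -0.43. The activator E2F3 rose 1.64-fold (0.71 ± 0.077 SE; limma, adjusted p = 0.00488), and E2F5 fell by 0.25 (limma, adjusted p = 0.0376). The E2F5 call ended with the replicate number as a block (adjusted p = 0.0775) and without the filter on low values (0.0571), and that of E2F7 when its probe sets were averaged (0.17; 0.26). RB1 (0.13) and E2F1 (-0.34) did not pass (limma, adjusted p = 0.153 and 0.0606), though E2F1 passed after quantile normalization (-0.44; 0.0302), with the lowest 50% of probe sets left out (0.0387), with an intensity trend (0.038) and with log2(intensity + 16) (0.0356). This list also had fewer calls when 1 array was left out, whichever array it was.

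Of 17 genes for factors that degrade p21, p27 and p57, all tested, 4 were called higher and 3 lower, with a median of 0.06. These counts are not far from the 17.7% and 12.3% of all genes and are no result about the list. After quantile normalization the split became 1 higher and 5 lower, with a median of -0.04, so that the larger side changed with the scaling, and with the replicate number as a block 2 genes were called. CUL4B, a scaffold of the ubiquitin ligase that removes p21 in S phase, rose 1.51-fold (0.59 ± 0.077 SE; limma, adjusted p = 0.00747). CKS1B, the cofactor of SKP2 in p27 degradation, rose 1.35-fold and UBAC1, a subunit of another p27 ligase, 1.24-fold, but neither call held after quantile normalization (limma, adjusted p = 0.0647 and 0.093), with the replicate number as a block (0.0841 and 0.0583) or without the filter on low values (0.0643 and 0.0629). FBXL12, an F-box gene, fell by 0.33, RCHY1 by 0.29 and COPS5 by 0.24 (limma, adjusted p = 0.0175, 0.0278 and 0.0416), with a second RCHY1 probe set at 1.11. With the block the calls of RCHY1 and COPS5 ended (adjusted p = 0.0538 and 0.0796), that of COPS5 also without the filter on low values (0.063), and the mean of both RCHY1 probe sets was called the other way (0.41; 0.00747). SKP2, the F-box gene best known for p27 turnover, was at 3.68 and 3.20 in mimic arrays and at 3.07 and 3.25 in control arrays, which overlapped (0.28; limma, adjusted p = 0.272). Few or no calls of this list were left when 1 array was left out, whichever array it was.

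Among 38 transcription factors and chromatin proteins known to act on CDKN genes, 32 were tested, and 6 were called higher and 5 lower, close to the 17.7% and 12.3% of all genes, with a median of 0.04. Quantile normalization left 6 higher and gave 10 lower, with the median at -0.06. The rest, among them TP63, BMI1, CBX8 and RNF2, were not analysed here. FOXO3, a forkhead factor that can activate CDKN1A and CDKN1B, was at 8.42 and 8.47 in mimic arrays and at 7.30 and 7.18 in control arrays. It rose 2.30-fold (1.20 ± 0.068 SE; limma, adjusted p = 0.0013), the highest of its 3 probe sets, which began at 0.60. Its relative FOXO4 fell by 0.53 ± 0.062 (SE; limma, adjusted p = 0.00588), with its 7 probe sets from -0.53 to 0.01. The zinc finger factor EGR1 rose by 0.85 (limma, adjusted p = 0.00437), and TP73 by 0.73 (limma, adjusted p = 0.00379), with probe sets of EGR1 from 0.23 to 1.03 and of TP73 from -0.35 to 1.03; the mean of the TP73 probe sets was not called (0.04; adjusted p = 0.75). ETS1, which can activate CDKN2A, fell by 0.55 (limma, adjusted p = 0.00504; probe sets from -0.55 to -0.21), and KDM6B, the demethylase that relieves Polycomb silencing of the INK4 locus, by 0.50 (limma, adjusted p = 0.0155). MYC, a repressor of CDKN1A and CDKN2B, had a difference of 0.16, and MEN1, whose product is known to sustain CDKN1B and CDKN2C transcription, of -0.09; neither passed (limma, adjusted p = 0.0979 and 0.325), though MYC passed with an intensity trend (0.0168) and with log2(intensity + 16) (0.0438). Here too, few or no calls were left when 1 array was left out.

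**Figure D4:**
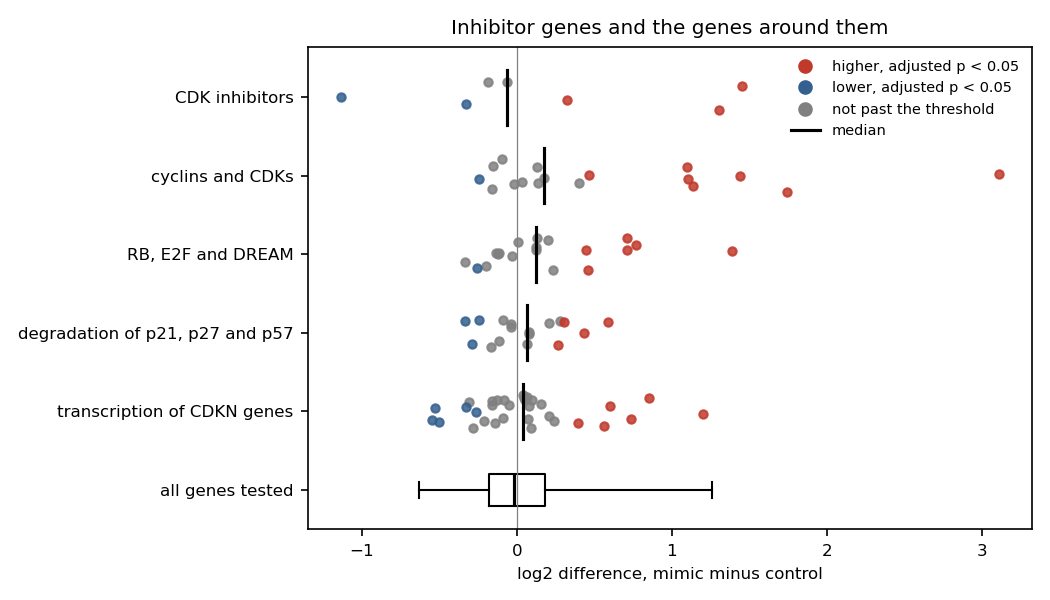
Log2 difference, mimic minus control, of the 7 inhibitor genes and of the tested genes in the 4 lists, with 1 point per gene, black bars at the medians and, for all 14340 genes, a box of the quartiles with whiskers from the 1st to the 99th percentile. CDKN1A (-1.13) lies left of the whisker of all genes, CDKN1C (1.30) and CDKN3 (1.45) lie right of it, and the cyclin and CDK list reaches 3.11 with CCNA2.

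For each called inhibitor gene the 3 tested genes with the most similar values over the 4 arrays were listed, by the Euclidean distance of log2 values centred on the gene's own mean. With 4 arrays such a profile holds little more than the size of the difference and the distance between replicates. Nearest to CDKN1A were SPRYD4 (distance 0.053), PGM2L1 (0.079) and DCUN1D3 (0.12), which differed by -1.15, -1.10 and -1.03. Around CDKN1C stood PRC1, a gene of the central spindle (0.073), DLEU2 (0.075) and HMMR (0.081), which differed by 1.28, 1.26 and 1.38. The profile of CDKN3 was closest to those of B3GALNT1 (0.048), CKS2, which encodes a CDK-binding subunit (0.055), and FAM3C (0.063), with differences of 1.43, 1.48 and 1.51. For CDKN2B they were MED15 (0.015), the cytokine gene LIF (0.031) and GSTM2P1 (0.032), with differences of -0.32, -0.31 (LIF, not called; limma, adjusted p = 0.0541) and -0.36. For CDKN2D they were DOCK1 (0.013), TRMT10A (0.02) and PPP1R26 (0.033), with differences of 0.33, 0.32 and 0.32.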

How the data were processed

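Each of the 4 arrays had 1 deposited intensity per probe set. RMA was the authors' method, per the submitters' processing notes, with no software, version or setting named in the sources used; the intensities were on a linear scale (1.62 to 11401 over the arrays), so log2 was taken first. No detection calls were used, and the number of arrays limits the precision.

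Probe sets were named from the platform annotation, with symbols updated by gene identifier to RefSeq on GRCh38.p14 (44961 of 44988 single-gene probe sets matched); 1832 with several genes and 2473 with none were left out. The lowest 30% by mean log2 over all arrays (below 2.83) were left out, and each gene was represented by its brightest probe set. limma 3.58.1 in R 4.3.3 (lmFit, eBayes) compared mimic with control over 14340 genes and again over 31711 probe sets, without a block. Independent arrays were simulated with variances drawn from the limma fit. On these the fit recovered 32.8% of log2 differences of 0.5, 90% of 1 and 98.3% of 2. Of its calls, 6.01% were false. A far smaller share of genes was given a difference there than the 30.1% called in the real arrays. Recovery at the share called in the real arrays was not tested. Simulated arrays cannot show whether the spread between the real arrays is technical only. Same-numbered arrays did not deviate together (r = -0.001 across genes).

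Members, lists and motifs were chosen with earlier results of these data known. Genes named were the members and all their probe sets, up to 3 genes per list and direction with the largest called difference and no overlap, 10 genes whatever their values (MKI67, CCND1, CDK2, CDK4, CDK6, RB1, E2F1, SKP2, MYC, MEN1), and the 3 nearest genes of each called member; TFAP4 was added for its motif after its values were seen. A few listed genes are not reported here.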

Additional observations from a re-analysis of the deposited data

How the results depend on the processing

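CDKN1A, CDKN1C and CDKN3 kept direction and call under all 9 alternatives that use every array, except CDKN3 without _s_at and _x_at probe sets, where it was at -0.36. CDKN1B was at 0.14 under that same setting, CDKN2A was at 0.026 as the mean of its probe sets, and its probe set 11753744_a_at (0.0079) was at -0.074 after quantile normalization, -0.023 without mimic replicate 2 and -0.051 to 0.067 over all fits that leave out 1 array; none of these were called. The count of called inhibitor genes, 5, was 3 without the filter on low values. That of their probe sets, 14, was 13 to 15 over the alternatives that use every array. Both counts fell when 1 array was left out, and then no probe set call held. Leaving out 1 array gave 0 to 963 called genes in all, 0 to 6 for cyclins and CDKs, 0 to 5 for the RB, E2F and DREAM list, 0 to 1 for the degradation list and 0 to 2 for the transcription list. The degradation list (7) had 2 calls with the replicate block and 3 without the filter on low values. The transcription list (11) had 17 with log2(intensity + 16) and 18 with an intensity trend. The causes of these shifts were not tested. Same-numbered arrays did not deviate together (r = -0.001), which does not settle whether they were handled as pairs. The replicate block left 2918 of 4310 genes called. Among the inhibitor genes, it ended the call of CDKN2D (limma, adjusted p = 0.0683) and no other.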

Other observations

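At the chromosome 9 locus of CDKN2A and CDKN2B, the neighbouring genes were looked at after the values of the inhibitors were seen. None of the 6 probe sets of MTAP, which encodes a methionine salvage enzyme, passed (differences of 0.01 to 0.21; limma, lowest adjusted p = 0.173 over probe sets). The antisense gene CDKN2A-AS1 had a difference of 0.08 (limma, adjusted p = 0.589 over probe sets), and the probe set of CDKN2B-AS1 alone was below the filter on dim probe sets. A probe set shared by MTAP and CDKN2B-AS1 was at 4.62 and 4.57 in mimic arrays and at 4.33 and 4.54 in control arrays and was not tested.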
